A study of Mus musculus with 6 samples.

Results

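The genes described here are 43 mouse genes of DNA replication and S phase, chosen by their function, with no measured value in the rule. The choice was made with earlier results of these data known. They comprise the 6 subunits of the MCM helicase, the GINS complex with Cdc45 and Mcm10, origin licensing factors, replicative polymerases and primase, the sliding clamp with its loader, factors that bind single strands or join Okazaki fragments, enzymes of nucleotide supply, and 5 further S phase genes (Ccne1, Ccne2, E2f1, Uhrf1 and Ung). All 43 were among the 36047 genes joined from the transcript files and all 43 were among the 20094 genes that passed the filter on low counts. Their RNA was measured by sequencing in the infarct area of hearts from female C57BL6 mice aged 12 weeks, 48 h after ischemia/reperfusion (I/R), in which a coronary artery is tied off for a time and then reopened. The 3 mice of the LGK-974 group received by mouth an inhibitor of Porcupine, the enzyme that attaches a lipid to Wnt proteins before they are secreted. The 3 mice of the DMSO group received the vehicle. Both groups had the same injury, and no uninjured heart was analysed here, so the comparison is of drug with vehicle within injured tissue and says nothing about the injury itself. The drug was given to the whole animal and the tissue was taken as a piece, so no cell type was targeted or isolated. In such bulk samples, fewer cells of a type and less RNA per cell cannot be told apart.

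Before a cell copies its DNA, the origin recognition complex, Cdc6 and Cdt1 load the MCM ring onto DNA in G1. Cyclin E kinase activity and E2F transcription factors then carry the cell into S phase, in which Cdc45 and GINS turn the MCM ring into an active helicase, DNA polymerases extend primed strands held by the PCNA clamp, and ribonucleotide reductase and thymidylate synthase supply building blocks. In the infarct of an adult mouse, the cells known to divide are mainly leukocytes, fibroblasts and endothelial cells, while adult cardiomyocytes rarely complete a cell cycle.

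The libraries held 41579787 to 80398211 estimated counts. DMSO replicate 1 stood apart from the other 5 libraries. Of 1503 olfactory, vomeronasal and taste receptor genes, which are silent in most tissues, 99.3% had counts in this library, against 60.3% to 88.5% in the others, and their median density was 38.2 counts per kilobase, against 3.68 to 14.7. The common dispersion, a measure of the spread between replicates, was 0.238 with this library and 0.0825 without it, and results are therefore given with and without DMSO replicate 1. LGK-974 replicate 3 had the smallest share of mitochondrial counts (28.1%, against 39.2% to 53.6% in the other libraries) and the largest TMM factor (1.40, against 0.816 to 1.06), which is the scaling that edgeR applies to library size. Cardiomyocyte markers were abundant in every library, with a summed level of 42768 to 66684 CPM (counts scaled to a common library size) over 12 genes.

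In 36 of the 43 genes the fitted level was higher with LGK-974 and in 7 it was lower, but none of these differences passed the threshold. Differences are given as log2 fold changes (0 means equal levels in the 2 groups, 1 a doubling under LGK-974), and their median over the 43 genes was 0.29, while over all 20094 tested genes it was -0.13 and 8130 genes were higher. The values of the 43 genes ran from -0.71 for Tyms to 0.86 for Mcm3, with standard errors of 0.17 to 0.53. Under the quasi-likelihood test of edgeR, with p adjusted by Benjamini-Hochberg over all tested genes, 0 of the 43 had an adjusted p below 0.05, the lowest being 0.368, and 0 of all 20094 genes (0%) did. DESeq2 called 315 of 22238 genes (1.42%) and limma-voom called 0, and neither called any of the 43, the lowest adjusted p of DESeq2 among them being 0.108. Before adjustment, 7 of the 43 genes had a p below 0.05 with edgeR, all with higher levels in the LGK-974 group, against 1257 of all tested genes (6.26%) on the higher side and 1442 (7.18%) on the lower side. DESeq2 and limma-voom also gave 7 members each below this unadjusted limit, all higher, against 3.64% and 6.3% of all genes on the higher side.

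These 7 genes were Mcm2, Mcm3, Mcm4, Mcm6, Pcna, Lig1 and Uhrf1. Without DMSO replicate 1, 10 members had an unadjusted p below 0.05, all higher, including the same 7, against 7.12% of all genes on the higher side. The log2 fold changes of the 7 genes ran from 0.47 (Pcna) to 0.86 (Mcm3) with all libraries and from 0.36 (Pcna) to 0.85 (Lig1) without DMSO replicate 1. The count depended on LGK-974 replicate 3, without which 2 members, Mcm3 and Lig1, were below 0.05, against 3.23% of all genes on the higher side, and the median of the 43 genes was 0.18. In the 6 fits that each left out 1 library, 28 of the 43 genes kept a positive value in every fit and 0 kept a negative one. With no filter on low counts, edgeR called 4 members, Mcm2, Mcm3, Lig1 and Uhrf1, against 1206 of 34257 genes (3.52%). All 43 members passed the filter, with 38 to 4712 counts per library, so this alternative changed the other genes of the fit and not their counts.

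**Figure D1:**
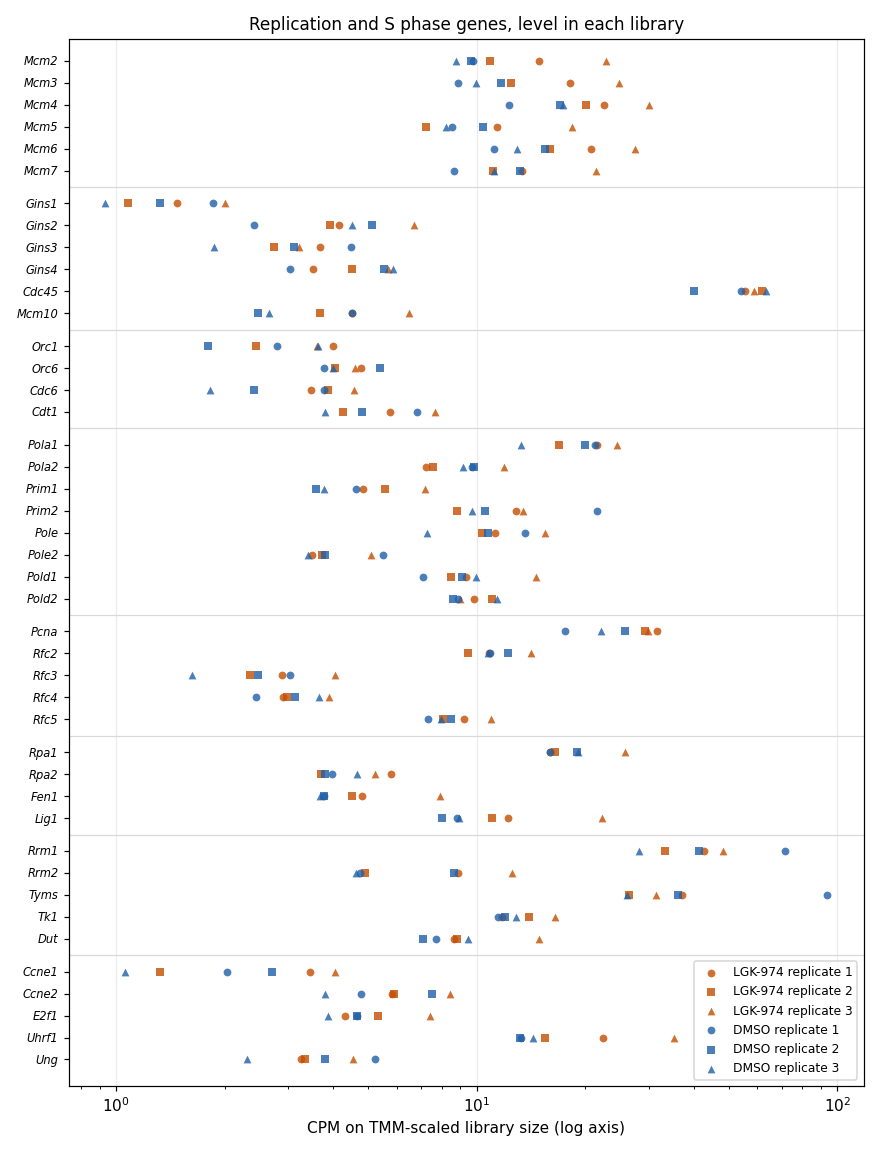
Level of each of the 43 genes in each of the 6 libraries, in CPM on the TMM-scaled library size (log axis). Orange symbols are LGK-974 and blue symbols DMSO, the shape gives the replicate, and horizontal lines separate the roles. LGK-974 replicate 3 (orange triangles) is the highest library in 30 genes, and DMSO replicate 1 (blue circles) is far to the right of the others for Tyms, Rrm1 and Prim2.

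In 9 of the 43 genes every LGK-974 library lay above every DMSO library, against 10.7% of all tested genes. In 0 of them did every LGK-974 library lie below every DMSO library, against 7.27% of all genes. The 9 genes were the 7 named above with Prim1 and Fen1, and the groups overlapped in the other 34. LGK-974 replicate 3 was the highest library in 30 genes and the lowest in 0. DMSO replicate 1 was the highest in 6 genes (Gins3, Prim2, Pole2, Rrm1, Tyms and Ung) and the lowest in 13, so this library lay at both ends of the range. Of the 7 genes with a lower fitted level under LGK-974, the 5 that were highest in DMSO replicate 1 (Prim2, Pole2, Rrm1, Tyms and Ung) had a higher fitted level once it was left out, while Gins4 and Pola2 stayed lower. Orc6 and Rfc4 went the other way, from 0.03 and 0.08 with all libraries to -0.05 and -0.05 without that library. Without DMSO replicate 1, 39 of the 43 genes were higher and the median was 0.35, against -0.02 over all genes.

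**Figure D2:**
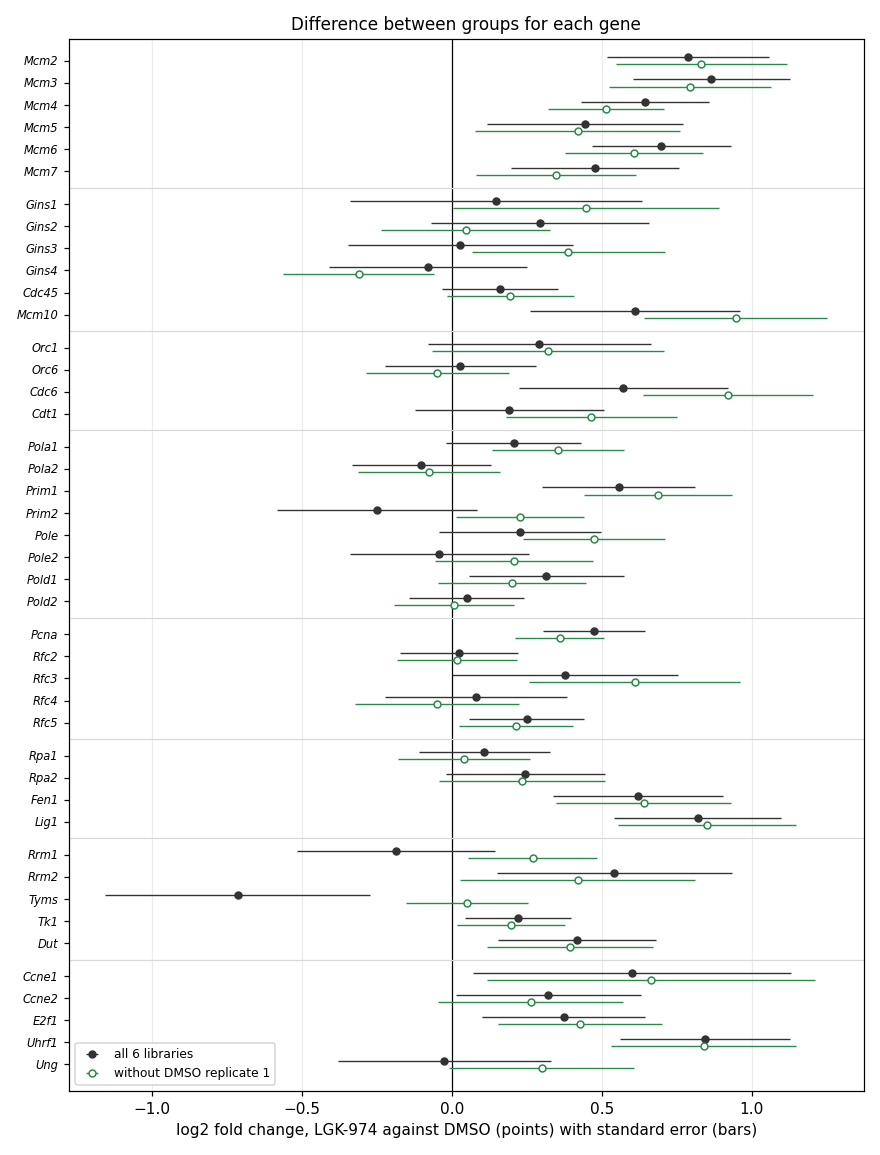
Fitted difference between LGK-974 and DMSO for each gene, as log2 fold change (points) with its standard error (bars), from all 6 libraries (filled) and without DMSO replicate 1 (open). The MCM subunits lie to the right of 0 in both fits, and Tyms moves from -0.71 to 0.05.

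The MCM helicase, the ring of Mcm2 to Mcm7 that unwinds the double strand, held 4 of the 7 genes with an unadjusted p below 0.05. All 6 subunits had a positive log2 fold change, with a median of 0.67 with all libraries and 0.56 without DMSO replicate 1. Their summed level was 101, 77.8 and 145 CPM in LGK-974 replicates 1, 2 and 3 and 59.3, 77.4 and 68.4 CPM in DMSO replicates 1, 2 and 3. The means were 108 ± 34.2 and 68.3 ± 9.08 CPM (SD, n = 3 each), a ratio of 1.58, or 1.48 without DMSO replicate 1. The groups did not overlap, but LGK-974 replicate 2 lay next to DMSO replicate 2.

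Mcm3 (ENSMUSG00000041859, chr1:20802968-20820312, minus strand, GRCm38) had the largest log2 fold change of the 43 genes. Its level was 18.2, 12.5 and 24.8 CPM in the LGK-974 libraries and 8.87, 11.6 and 9.95 CPM in the DMSO libraries. All LGK-974 values lay above all DMSO values, and the difference was 0.86 ± 0.26 (log2, SE) with an adjusted p of 0.368 from edgeR. Mcm2 (chr6:88883474-88898780, minus strand) measured 14.9, 10.9 and 22.9 CPM with LGK-974 and 9.78, 9.66 and 8.77 CPM with DMSO. The DMSO values were close together and the LGK-974 values spread over a wider range, with a log2 fold change of 0.79 ± 0.27. Mcm4 (chr16:15623897-15637400, minus strand) measured 22.6, 20.1 and 30.1 CPM against 12.3, 17.0 and 17.3 CPM. Mcm6 (chr1:128331590-128359664, minus strand) measured 20.8, 15.955 and 27.5 CPM against 11.2, 15.5 and 12.9 CPM. In both genes the lowest LGK-974 library was just above the highest DMSO library, and the log2 fold changes were 0.64 ± 0.21 and 0.70 ± 0.23.

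The remaining subunits overlapped between the groups. Mcm7 measured 13.3, 11.1 and 21.5 CPM with LGK-974 and 8.65, 13.2 and 11.2 CPM with DMSO, and its log2 fold change was 0.48 ± 0.28. Mcm5 had its lowest level of all libraries in LGK-974 replicate 2 (7.24 CPM) and its highest in LGK-974 replicate 3 (18.3 CPM), with a log2 fold change of 0.44 ± 0.33. Reads in the parts of Mcm7 exons that overlap Ap4m1 (321 bases) and Cops6 (64 bases) on the other strand cannot be assigned to 1 gene, since the strand setting of the counting was not given in the sources used here.

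Many replication genes are known targets of E2F factors, which bind GC-rich words, and the promoters were searched for such words because the MCM genes shared a direction. The reference table of RefSeq promoters (GRCm38.p6, from 250 bases before to 50 after each annotated start) held 35 of the 43 genes, with 41 windows. The E2F words TTTCCCGC, TTTCGCGC, TTTGCCGC and TTTGGCGC were searched on both strands, and neighbouring matches could overlap. At least 1 match stood in 14 of the 35 genes (40%), against 704 of 27025 genes in the whole table (2.61%). Among genes with a single window, the shares were 36.7% and 2.32%. The 43 genes were chosen by function, so these shares describe the list and not an effect of LGK-974. The CCAAT box (CCAAT, both strands) stood in 57.1% of the 35 genes and 41.1% of all genes, and the cell cycle homology word (TTTGAA, both strands) of many mitotic genes in 14.3% and 20.2%. The following stretches, on the strand of each gene with the E2F words in capitals, show how these words lie in genes of the helicase, of licensing, of ligation and of the clamp loader and in Uhrf1. They are chr1:20820266-20820294 (minus) for Mcm3, chr8:75109316-75109407 (plus) for Mcm5, chr1:128359705-128359855 (minus) for Mcm6, chr17:56304088-56304175 (plus) for Uhrf1, chr7:13278841-13278870 (plus) for Lig1, chr11:98908002-98908031 (plus) for Cdc6 and chr5:151651195-151651224 (minus) for Rfc3, and those of Mcm3, Lig1, Cdc6 and Rfc3 overlap an annotated exon.
Mcm3: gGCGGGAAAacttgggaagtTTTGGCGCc
Mcm5: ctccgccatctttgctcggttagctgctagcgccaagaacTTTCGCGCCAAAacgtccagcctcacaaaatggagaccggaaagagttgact
Mcm6: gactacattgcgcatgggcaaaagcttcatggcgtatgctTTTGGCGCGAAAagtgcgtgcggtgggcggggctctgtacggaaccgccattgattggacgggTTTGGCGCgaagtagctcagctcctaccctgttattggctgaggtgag
Uhrf1: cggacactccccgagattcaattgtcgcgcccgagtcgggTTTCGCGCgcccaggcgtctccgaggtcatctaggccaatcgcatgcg
Lig1: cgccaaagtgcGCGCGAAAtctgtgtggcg
Cdc6: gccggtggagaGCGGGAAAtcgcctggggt
Rfc3: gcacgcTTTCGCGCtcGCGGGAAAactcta

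The 14 genes with a match were Mcm3, Mcm5, Mcm6, Mcm7, Gins3, Cdc6, Cdt1, Orc1, Pola1, Pold1, Pole2, Rfc3, Lig1 and Uhrf1. Of these, 13 had a higher fitted level with LGK-974 and their median log2 fold change was 0.41. Of the 21 genes with a window but no match, 17 were higher, with a median of 0.24, and of the 8 genes without a window, 6 were higher, with a median of 0.19. These are descriptions, since the words are matches of letters and binding was not measured.

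The partners that complete the active helicase had no unadjusted p below 0.05 with all libraries. Over Gins1 to Gins4, Cdc45 and Mcm10 the median log2 fold change was 0.15, and 5 of 6 were above 0. Mcm10, which helps to start unwinding, measured 4.52, 3.68 and 6.498 CPM with LGK-974 and 4.499, 2.48 and 2.65 CPM with DMSO. Only DMSO replicate 1 reached into the LGK-974 range, and the log2 fold change was 0.61 ± 0.35 with all libraries and 0.95 ± 0.31 without it, with an unadjusted p of 0.014 in the latter fit and an adjusted p of 0.351 from edgeR. The 4 GINS genes had low levels, between 0.933 and 6.69 CPM, and log2 fold changes of -0.08 to 0.29. For Gins2, 2758 of 4097 exon bases overlap Gse1 on the other strand, so its value is uncertain.

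Cdc45 (chr16:18780447-18811987, minus strand), which couples the MCM ring to GINS, had the highest level per length of all 43 genes, with a mean of 41.1 TPM (transcript abundance corrected for length) over the 6 libraries. It measured 55.5, 61.7 and 58.7 CPM with LGK-974 and 54.2, 40.03 and 63.3 CPM with DMSO, and the groups overlapped. Its level came almost wholly from Cdc45-204, a transcript annotated as a retained intron, with 36.8 to 61.2 CPM per library. The protein-coding transcripts of Cdc45 held 4.26, 2.30 and 7.01 CPM with LGK-974 and 2.61, 3.16 and 2.09 CPM with DMSO, which is 3.30% to 11.95% of the gene. The rank of Cdc45 among the 43 genes therefore rests on that transcript. The Cdc45 exons share 209 bases with Ufd1 on the other strand.

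The licensing factors Orc1, Orc6, Cdc6 and Cdt1 all had a positive log2 fold change with all libraries, with a median of 0.24. Without DMSO replicate 1, and also on protein-coding transcripts, 3 of the 4 were positive. Orc6 was at -0.05 and -0.13 in these 2 fits. Cdc6, the ATPase that loads the MCM ring, measured 3.46, 3.86 and 4.57 CPM with LGK-974 and 3.77, 2.42 and 1.82 CPM with DMSO. Again DMSO replicate 1 alone overlapped the LGK-974 range, and the log2 fold change was 0.57 ± 0.35 with it and 0.92 ± 0.28 without it. In that library a background of the density seen in the silent receptor genes would account for 75.95% of the Cdc6 counts, and in DMSO replicate 2 for 47.9%. On counts less this background the log2 fold change of Cdc6 was 1.41 ± 0.37. Over the 43 genes the median of this background share was 21.04% in DMSO replicate 1 and 0.83% to 6.30% in the other libraries. Cdt1, Orc1 and Orc6 overlapped between the groups, with log2 fold changes of 0.19, 0.29 and 0.03. For Cdt1, transcripts annotated as retained introns held 72.4% to 100% of the counts. Its protein-coding transcripts measured 1.27, 0 and 2.10 CPM with LGK-974 and 0, 0 and 0.639 CPM with DMSO.

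Among polymerases and primase, 5 of 8 genes were above 0 and the median was 0.13. Prim1, the catalytic primase subunit that lays down RNA primers, measured 4.85, 5.56 and 7.20 CPM with LGK-974 and 4.62, 3.58 and 3.78 CPM with DMSO. The groups did not overlap, and the log2 fold change was 0.56 ± 0.25 with an adjusted p of 0.369 from edgeR. Its partner Prim2 measured 12.9, 8.83 and 13.4 CPM with LGK-974 and 21.6, 10.53 and 9.73 CPM with DMSO, and DMSO replicate 1 was the highest library. The log2 fold change of Prim2 was -0.25 ± 0.33 with all libraries and 0.23 ± 0.21 without DMSO replicate 1. The other genes were Pola1 and Pola2 of the priming polymerase (0.21 and -0.10), Pole and Pole2 of the leading strand polymerase (0.23 and -0.04), and Pold1 and Pold2 of the lagging strand polymerase (0.31 and 0.05), with standard errors of 0.19 to 0.30.

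Pcna (chr2:132249162-132253314, minus strand), the ring that holds polymerases on DNA, had the smallest standard error of the 43 genes. It measured 31.5, 29.3 and 29.9 CPM with LGK-974 and 17.6, 25.7 and 22.1 CPM with DMSO. The LGK-974 mice were close together, at 30.2 ± 1.17 CPM (SD, n = 3), against 21.8 ± 4.07 CPM in the DMSO mice (SD, n = 3). The log2 fold change was 0.47 ± 0.17 with an adjusted p of 0.368 from edgeR, and it was 0.36 ± 0.15 without DMSO replicate 1. Pcna was the third of the 43 genes by level per length, with a mean of 20.5 TPM. The clamp loader genes Rfc2 to Rfc5 overlapped between the groups, with log2 fold changes of 0.02 to 0.38.

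Of the genes that bind single strands or finish the lagging strand, Lig1 and Fen1 had LGK-974 values above all DMSO values. Lig1 (chr7:13277283-13311433, plus strand), the ligase that joins Okazaki fragments, measured 12.2, 11.03 and 22.2 CPM with LGK-974 and 8.82, 8.03 and 8.92 CPM with DMSO. The DMSO values were close together, LGK-974 replicate 3 was far above the other libraries, and the log2 fold change was 0.82 ± 0.28. Fen1, the nuclease that trims the flap before ligation, measured 4.82, 4.52 and 7.91 CPM against 3.77, 3.76 and 3.68 CPM, a log2 fold change of 0.62 ± 0.28 with an adjusted p of 0.369 from edgeR. Here too LGK-974 replicate 3 set the top of the range. Without LGK-974 replicate 3, the log2 fold changes of Lig1 and Fen1 were 0.51 and 0.39. Rpa1 and Rpa2, which coat single strands, overlapped between the groups (0.11 and 0.24). Exon overlaps on the other strand cover 247 of 4268 bases of Lig1 (Zswim9) and 130 of 2422 bases of Fen1 (Tmem258). They also cover 952 of 6303 bases of Rfc2 (Lat2), 609 of 3495 of Ccne2 (Ints8) and 499 of 4669 of Rfc5 (Wsb2). Smaller ones cover 194 of 1533 bases of Rfc4 (Eif4a2), 171 of 2469 of Orc6 (Vps35) and 83 of 5198 of Tk1 (Afmid). For Pole2, 245 of 2881 bases overlap Gm49384 on the same strand.

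Uhrf1 (chr17:56303321-56323486, plus strand), which brings the maintenance DNA methyltransferase to newly copied DNA, measured 22.4, 15.4 and 35.2 CPM with LGK-974 and 13.2, 13.2 and 14.3 CPM with DMSO. The lowest LGK-974 library lay just above the highest DMSO library. Its log2 fold change was 0.84 ± 0.28 with an adjusted p of 0.368 from edgeR, and it was 0.56 without LGK-974 replicate 3. The S phase regulators Ccne1, Ccne2 and E2f1 had log2 fold changes of 0.60, 0.32 and 0.37, and Ung, which removes uracil from DNA, had -0.03. All 4 overlapped between the groups, and the standard error of Ccne1 (0.53) was the largest of the 43 genes.

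The nucleotide supply genes gave both the lowest value and the largest effect of a single library. Tyms (chr5:30058202-30073617, minus strand), thymidylate synthase, measured 37.1, 26.4 and 31.5 CPM with LGK-974 and 93.8, 36.1 and 26.1 CPM with DMSO. DMSO replicate 1 was far above every other library, which shared a common range. The log2 fold change was -0.71 ± 0.44 with all libraries and 0.05 ± 0.20 without DMSO replicate 1. Rrm1 (chr7:102441695-102469771, plus strand), the large subunit of ribonucleotide reductase, measured 42.7, 33.2 and 48.1 CPM with LGK-974 and 71.7, 41.4 and 28.2 CPM with DMSO. Its log2 fold change was -0.19 ± 0.33 with all libraries and 0.27 ± 0.22 without DMSO replicate 1. Tyms and Rrm1 together made up 31.1% of the summed level of the 43 genes in DMSO replicate 1 and 12.1% to 17.2% in the other libraries. Rrm2, Tk1 and Dut overlapped between the groups, with log2 fold changes of 0.54, 0.22 and 0.42. For Tk1, transcripts annotated as retained introns held 67.6% to 85.3% of the counts.

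The excess of DMSO replicate 1 lay in other transcripts than the protein-coding ones for Rrm1, while for Tyms it lay in both kinds. Rrm1-204, annotated as a retained intron, measured 54.2 CPM in DMSO replicate 1, 19.8 and 9.86 CPM in DMSO replicates 2 and 3, and 11.1, 8.48 and 6.09 CPM in the LGK-974 libraries. The protein-coding Rrm1-201 went the other way, with 23.3, 18.8 and 30.3 CPM in the LGK-974 libraries and 9.82, 15.7 and 13.0 CPM in the DMSO libraries. On protein-coding transcripts alone, every LGK-974 library lay above every DMSO library for Rrm1, and the log2 fold change was 0.84 ± 0.21 with an adjusted p of 0.263 from edgeR. For Tyms, the protein-coding Tyms-201 was itself high in DMSO replicate 1 (56.6 CPM, against 21.1 to 28.8 CPM elsewhere), and so was Tyms-204, annotated for nonsense-mediated decay (35.2 CPM, against 2.64 to 6.91 CPM). The log2 fold change of Tyms on protein-coding transcripts was -0.69 ± 0.39 with all libraries and -0.03 ± 0.20 without DMSO replicate 1.

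**Figure D3:**
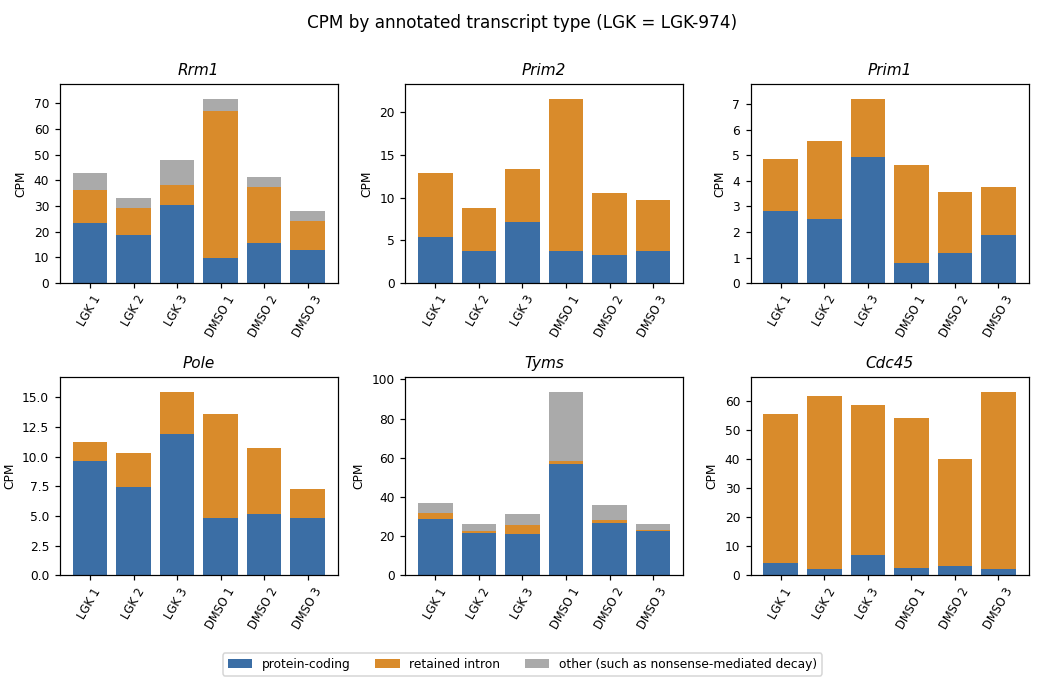
CPM of Rrm1, Prim2, Prim1, Pole, Tyms and Cdc45 in each library, stacked by annotated transcript type (blue protein-coding, orange retained intron, grey other types). In DMSO replicate 1, orange makes up most of Rrm1, Prim2, Prim1 and Pole, and in Cdc45 it makes up most of the bar in every library.

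The same split was seen over the whole list. Protein-coding transcripts held 52.5% of the counts of the 43 genes in DMSO replicate 1 and 66.2% to 74.4% in the other 5 libraries, and retained-intron transcripts held 38.4% and 21.4% to 30.5%. Over all nuclear protein-coding genes, retained-intron transcripts held 7.09% in DMSO replicate 1 and 6.06% to 6.46% in the others. DMSO replicate 1 had the lowest protein-coding share in 24 of the 38 genes in which that share varied. A count restricted to protein-coding transcripts was therefore added after the data had been seen. It gave a higher fitted level in 34 of the 43 genes and a lower one in 9, against 36 and 7 for the whole genes. The median log2 fold change of the 43 genes was 0.41, against -0.10 over all genes. With edgeR, 10 members had an unadjusted p below 0.05, all higher and including the same 7, against 7.26% of all genes on the higher side. The additional genes were Rrm1, Prim1 and Pole. Again 0 members passed the adjusted threshold, with a lowest adjusted p of 0.263 from edgeR. In 15 genes every LGK-974 library lay above every DMSO library on this count, against 13.1% of all genes, and in 0 below, against 6.04%.

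The log2 fold changes of Pole, Pole2, Prim1 and Prim2 were all larger on protein-coding transcripts than for the whole gene. Pola1 also rose, to 0.41, while Pold1, Pola2 and Pold2 fell to -0.14, -0.19 and -0.03. On either count 5 of the 8 polymerase and primase genes were above 0. The protein-coding transcripts of Pole measured 9.61, 7.46 and 11.9 CPM with LGK-974 and 4.85, 5.17 and 4.86 CPM with DMSO, and the groups were well apart. The log2 fold change was 0.87 ± 0.22 on this count, against 0.23 ± 0.27 for the whole gene, with an adjusted p of 0.263 from edgeR. Prim1 measured 2.80, 2.50 and 4.95 CPM with LGK-974 and 0.804, 1.16 and 1.89 CPM with DMSO on protein-coding transcripts, a log2 fold change of 1.35 ± 0.44. Pole2 had 0.70 ± 0.41 and Prim2 0.51 ± 0.29 on this count, and the groups did not overlap in either gene. How the program divided reads between coding and intron-retaining transcripts of the same gene was not tested.

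The summed level of all 43 genes overlapped between the groups. It was 517, 449 and 657 CPM with LGK-974 and 532, 449 and 418 CPM with DMSO, with means of 541 ± 106 and 466 ± 59.1 CPM (SD, n = 3 each). The difference between the group means of the log2 sums was 0.20, and it was 0.05 without LGK-974 replicate 3 and 0.30 without DMSO replicate 1. On protein-coding transcripts the sums were 375, 307 and 488 CPM with LGK-974 and 279, 307 and 276 CPM with DMSO. Their means were 390 ± 91.5 and 288 ± 16.9 CPM (SD, n = 3 each), a ratio of 1.36. LGK-974 replicate 2 lay at the level of the DMSO libraries in each of these sums. No p is given for the sums, and with 3 mice against 3 an exact permutation test could not go below 0.1.

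**Figure D4:**
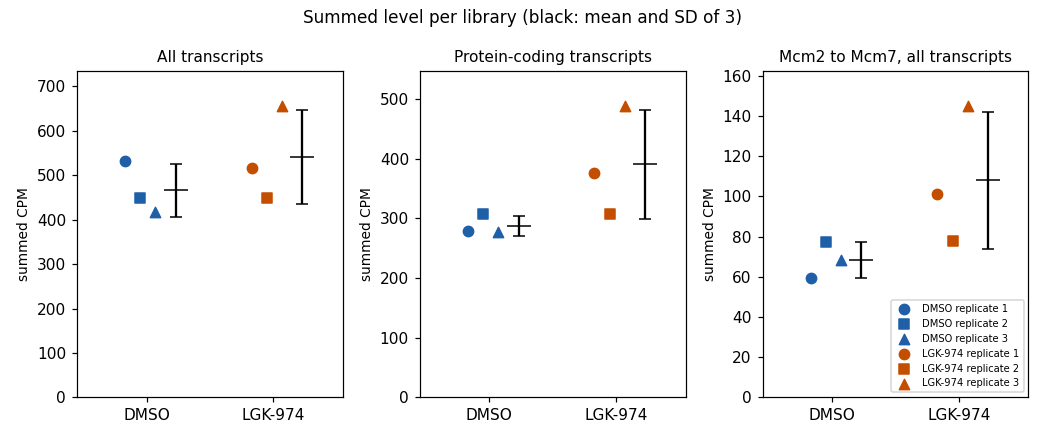
Summed CPM per library for the 43 genes over all transcripts (left), over protein-coding transcripts (middle) and for Mcm2 to Mcm7 (right), with the mean and SD of 3 mice in black. LGK-974 replicate 3 is the highest point in each panel (657, 488 and 145 CPM), and LGK-974 replicate 2 lies beside the DMSO points.

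Other lists of the cell cycle were read in the same way. Of 41 further replication genes, 29 were higher with a median log2 fold change of 0.20, and 2 had an unadjusted p below 0.05, both higher. These were Chaf1a of the chromatin assembly factor (13.3, 11.1 and 22.4 CPM against 9.02, 10.03 and 9.97 CPM) and Rpa3 (3.79, 2.59 and 3.46 CPM against 1.94, 1.88 and 1.87 CPM), while Chaf1b had a log2 fold change of 0.66 ± 0.30. Without DMSO replicate 1 the median was 0.35 and 11 of the 41 genes were below this limit, all higher. Over all tested genes, 6.26% were below it on the higher side with all libraries and 7.12% without DMSO replicate 1. Of 28 further genes of nucleotide synthesis, 21 were higher with a median of 0.23, and 7 were below the limit, all higher. Without DMSO replicate 1, 18 were higher with a median of 0.16, and 6 were below the limit, all higher. CTP synthase Ctps measured 27.9, 28.8 and 30.7 CPM against 16.6, 22.3 and 17.6 CPM, and Samhd1, which degrades deoxynucleotides, 46.2, 46.95 and 58.4 CPM against 33.9, 36.5 and 36.8 CPM. Dctd, the deaminase that feeds thymidylate synthase, had a log2 fold change of 0.91 ± 0.30. None of the genes of these lists passed the adjusted threshold with edgeR.

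Of 24 regulators of the step from G1 to S phase, 20 were higher with a median of 0.32. Of these, 7 had an unadjusted p below 0.05 with edgeR, and 1 gene was lower with such a p. Over all tested genes, 6.26% were higher and 7.18% lower with such a p. Without DMSO replicate 1, 18 regulators were higher with a median of 0.37, 6 of them with such a p, and 2 genes were lower with such a p. Cdk6, a cyclin D kinase, measured 54.6, 45.7 and 59.8 CPM against 32.5, 36.1 and 36.6 CPM, and E2f8, a repressor among E2F factors, had a log2 fold change of 0.70 ± 0.21. Ccnd1, cyclin D1, measured 65.5, 51.15 and 70.2 CPM against 25.7, 46.15 and 43.6 CPM. With all libraries the gene on the lower side was Tfdp2, a dimer partner of E2F factors. It measured 32.8, 44.95 and 20.4 CPM with LGK-974 and 57.6, 60.3 and 76.9 CPM with DMSO. Without DMSO replicate 1, Rbl2 was the other gene on the lower side, with a log2 fold change of -0.53. Myc overlapped between the groups, with a log2 fold change of 0.25 ± 0.25. Of 13 CDK inhibitors and antiproliferative genes, 7 were higher with a median of 0.11. Btg1 and Trp53 had an unadjusted p below 0.05, with log2 fold changes of 0.56 ± 0.19 and 0.55 ± 0.21, Btg2 had 0.55 ± 0.24, and Cdkn1a, which encodes the inhibitor p21, had 0.11 ± 0.20. Without DMSO replicate 1, the median of these 13 genes was -0.01.

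Genes of G2 and mitosis had larger values than those of replication. Of 36 genes, 34 were higher, the median was 0.60, and 19 had an unadjusted p below 0.05 with edgeR, all higher. Over all tested genes, the share with such a p on the higher side was 6.26%. None passed the adjusted threshold with edgeR, but DESeq2 called 5 of them, Cenpe, Ccna2, Tpx2, Mki67 and Top2a, all higher. Mki67, the antigen Ki-67 of cycling cells, measured 267, 170 and 275 CPM with LGK-974 and 96.3, 131 and 128 CPM with DMSO, and its log2 fold change was 1.004 ± 0.24. Cyclin A2 (Ccna2), which acts in S phase and G2, measured 32.0, 23.9 and 33.3 CPM against 12.5, 15.0 and 14.6 CPM. Cenpe, a kinetochore motor, and Tpx2, a spindle factor, had log2 fold changes of 1.13 ± 0.17 and 1.11 ± 0.26, and Top2a had 0.89 ± 0.23. Whether the mitosis list differed from the replication genes was not tested.

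**Figure D5:**
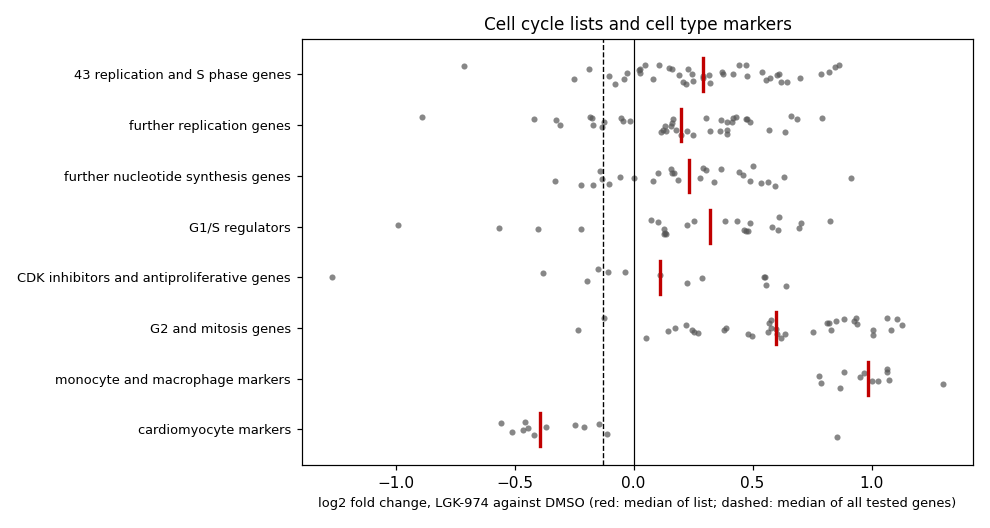
Fitted difference between LGK-974 and DMSO, as log2 fold change, for each tested gene of 8 lists (grey points), with the median of each list (red) and of all 20094 tested genes (dashed, -0.13). The replication genes have a median of 0.29, the G2 and mitosis genes 0.60, the monocyte and macrophage markers 0.98 and the cardiomyocyte markers -0.39.

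Markers of cell types that could carry these transcripts also differed in level between the libraries. All 12 monocyte and macrophage markers had a positive log2 fold change (median 0.98), and their summed level was 493 to 653 CPM with LGK-974 and 223 to 312 CPM with DMSO. All 10 fibroblast markers had a positive value, from 0.01 (Dcn) to 1.56 (Postn) with a median of 0.54. Of these, 4 had an unadjusted p below 0.05 with edgeR, against 6.26% of all tested genes on the higher side. Without DMSO replicate 1, 8 of the 10 were positive and the median was 0.37. The fibroblast sums were 3540 to 6016 CPM against 1729 to 2546 CPM. Of 12 cardiomyocyte markers, 11 had a negative value (median -0.39), with overlapping sums of 42768 to 60104 CPM and 48081 to 66684 CPM. The medians were 0.03 for 8 endothelial, 0.24 for 7 mural, 0.01 for the 6 tested neutrophil, -0.10 for 6 B cell and -0.03 for 8 erythroid markers. Without DMSO replicate 1 they were -0.02, 0.04, 0.06, 0.45 and -0.14 in the same order, with all 6 B cell markers positive, and those of the monocyte and macrophage and the cardiomyocyte markers were 0.88 and -0.50. Of 8 T cell markers 7 were lower, with a median of -1.02 that became -0.21 without DMSO replicate 1, in which their sum was 53.6 CPM against 19.6 to 23.6 CPM elsewhere. No marker was at 0 in all libraries. The part of these markers in the values of the replication genes was not tested.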

How the data were processed

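RNA from the infarct area of 6 mice was depleted of ribosomal RNA, made into libraries with a capture kit for coding RNA and sequenced. The authors quantified transcripts with Kallisto on an index of GRCm38, and its version, strand setting and read trimming were not given in the sources used here. Each of the 6 deposited files lists 118489 transcripts with their estimated counts and TPM. Estimated counts need not be whole, since reads that match several transcripts are divided between them, so values of genes with overlapping exons are uncertain. The deposited TPM values are scaled to transcript length and to each library's sum and served for levels between genes and for 1 alternative.

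Transcripts were joined to genes through GENCODE M21 (98.6% joined, holding 99.6% to 99.7% of the counts), and the counts of a gene's transcripts were added up and rounded. Genes reaching 10 counts in 3 or more libraries were tested with edgeR 4.0.16 (quasi-likelihood test, TMM, treatment as the only factor, R 4.3.3) at a Benjamini-Hochberg adjusted p of 0.05 over all tested genes. The study's own tool, DESeq2 (version 1.42.0), and limma-voom (limma 3.58.1) were alternatives. CPM were taken on the TMM-scaled library size. Other alternatives changed the size factors, the filter, the counting unit and the libraries, or subtracted a background per kilobase taken from receptor genes that are silent in heart. The fits were checked on simulated data. Depth was 41579787 to 80398211 estimated counts, and the number of mice limits the precision more than counting does.

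Groups and replicate numbers came from the sample labels, and each library is a different mouse. The members and all gene lists were chosen with earlier results of these data known. Values in every library are given for members past the threshold, of which there were 0, for the 12 with the smallest unadjusted p, for those with the largest and smallest log2 fold change and for the 3 with the highest TPM. In each other cell cycle list the 3 genes with the smallest p are named, and Mki67, Top2a, Cdkn1a, Ccnd1 and Myc. Prim2, Pole, Mcm5 and further values of single members were added after their values were seen. Figures and tables were made with Python 3.11.15, pandas 2.3.3, NumPy 2.4.6 and matplotlib 3.10.9.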

Additional observations from a re-analysis of the deposited data

How the results depend on the processing

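The median log2 fold change of the 43 genes stayed above 0 in all 19 alternatives, between 0.18 and 0.47. Over all genes of each fit, the median ran from -0.75 (DESeq2) to 0.016 (without DMSO replicate 3). With no filter on low counts the median over all genes was -0.55, against -0.13 in the main fit. The count of calls among the 43 genes was 0 except with no filter on low counts, which gave 4 (log2 fold change and adjusted p of edgeR: Mcm2 0.94 and 0.0425, Mcm3 1.003 and 0.0248, Lig1 0.97 and 0.0345, Uhrf1 0.99 and 0.0265). Over all genes, calls were 0 with all libraries, 315 with DESeq2, 1206 with no filter, 326 with DESeq2 without DMSO replicate 1, 1 on counts less background without that library, 1 on protein-coding transcripts without it, and 0 to 2 when 1 library was left out, 2 being the value without DMSO replicate 1. Members with an unadjusted p below 0.05 numbered 2 to 10 when 1 library was left out, 2 being the value without LGK-974 replicate 3. The median of the further replication genes was 0.38 with no filter, 0.33 on counts less background without DMSO replicate 1, 0.38 on protein-coding transcripts, 0.41 on these without DMSO replicate 1, 0.34 with DESeq2 without DMSO replicate 1 and 0.16 to 0.41 when 1 library was left out. The median of the G1/S regulators was 0.47 with no filter. The difference between the group means of the log2 summed levels was 0.55 from TPM against 0.20 from CPM.

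Rrm1 changed sign, to 0.036 with no filter, 0.37 on counts scaled from TPM, 0.038 without LGK-974 replicate 2 (range -0.33 to 0.27 when 1 library was left out, 0.27 being without DMSO replicate 1), 0.22 on counts less background without that library, 0.84 on protein-coding transcripts, 0.75 on these without DMSO replicate 1 and 0.25 with DESeq2 without it. Tyms changed sign to 0.049 without DMSO replicate 1 (range -0.94 to 0.049), 0.0046 on counts less background without it and 0.031 with DESeq2 without it, and Cdc45 to -0.014 without DMSO replicate 2 (range -0.014 to 0.43). The cause of these changes was not tested. Deviations of same-numbered libraries correlated at 0.475, -0.048 and 0.391, and those of differently numbered libraries at -0.518 to 0.1. Whether the replicate numbers of the labels pair the mice cannot be told from these values, and the main fit holds no block. A fit with the replicate block called 0 genes and 0 members, and the median of the members was 0.29. With the block 3312 genes had an unadjusted p below 0.05 in edgeR, against 2699 without it. Members below that limit numbered 7 in both fits. The lowest adjusted p of edgeR among the members was 0.169 (Uhrf1) with the block and 0.368 without it. In alternatives that leave a group with 2 mice, the spread was estimated over both groups. The alternatives on protein-coding transcripts, on background without DMSO replicate 1 and on DESeq2 without it were chosen after seeing the data.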
